A study of Mus musculus with 4 samples.

Results

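The regions described here are those on chromosomes 1 to 19 of the mouse genome (mm10) that carried a CUT&RUN peak in both mTEClo libraries and in neither mTEChi library, and that lay in or near a protein-coding gene. There were 4518 of them among 258125 merged regions of all 4 libraries. Each deposited peak is an interval that reaches 150 bp to either side of a summit. Intervals of the 4 libraries that shared at least 1 bp were merged into 1 region, and a region counted as in or near a gene when its midpoint fell inside a RefSeq protein-coding gene interval or within 5 kb of one. The regions were chosen by the presence or absence of peaks in the 4 libraries, so that presence and the peak scores are given as description, with no test.

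The 4 libraries came from sorted thymic epithelial cells of mice 4 to 5 weeks old with wild-type Trp53 (Trp53-WT), 2 from mTEClo cells and 2 from mTEChi cells, with 500000 cells named per condition. Thymi were freed of thymocytes and digested, EpCAM+ cells were enriched on magnetic beads, and the 2 states were then separated by flow cytometry. The markers of the sorting gates are not stated in the labels. By the library titles the antibody was against p53, but the protocol gives anti-BAF155, BAF155 being part of the BAF complex. The labels do not settle which was used. Both states carried the same genotype, and no library with a control antibody was analysed here. The labels do not say whether the replicates came from separate mice, so a p-value over libraries reflects how far these 4 libraries scatter, possibly for technical reasons.

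Medullary thymic epithelial cells (mTECs) present self antigens to developing T cells. The mTEClo state, low in MHC class II and CD80, holds immature and precursor cells among others, which are known for basal keratins, laminins and integrins. The mTEChi state is mature: it makes much MHC class II and CD80 and includes the cells that express Aire, the regulator that switches on many tissue-restricted genes. p53 is a stress-activated transcription factor, and the BAF complex moves nucleosomes. In CUT&RUN an antibody tethers a nuclease that releases nearby DNA, so a peak marks a place where DNA was released more often, and is not a measure of expression.

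The libraries held 89809 and 69359 peaks in mTEClo and 73510 and 85308 in mTEChi, counted over all chromosomes. The score of a peak is the authors' own value, the −log10 of a p or q value, and no peak scored below 2. Read depth is not given in the files, so the absence of a peak means only that none was called. Replicates shared few regions: 11.7% of the regions present in either mTEClo library were present in both, against 9.35% for the mTEChi pair, and the 4 pairs of an mTEClo with an mTEChi library shared 7.04% to 10.1%. The mTEClo-only regions, 7134 with those between genes, made up 2.76% of all merged regions, and the mTEChi-only regions, 4740, made up 1.84%. In or near genes, the mTEClo-only regions were 3.05% of 148296 merged regions, and the 3018 mTEChi-only regions were 2.04%. The mTEClo-only regions in or near genes took in 5.06% of the peaks of mTEClo replicate 1 and 6.54% of those of replicate 2.

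Of the regions in or near genes, 504 mTEClo-only regions (11.2%, 95% Wilson interval 10.3 to 12.1) touched a RefSeq promoter window, which runs from 250 bases before a gene's start to 50 bases after it. Among mTEChi-only regions 249 did (8.25%, 7.32 to 9.29), and among regions present in all 4 libraries 2247 did (53.3%). The mTEClo-only regions lay on 559 of 20085 windows (2.78%), at 523 genes, and the mTEChi-only regions on 298 windows (1.48%). Below are the 250 bases before a RefSeq start of 8 genes whose window at that start carried an mTEClo-only region. They are from RefSeq (GRCm38.p6, the mm10 assembly), written 5′ to 3′ in the direction of the gene. The starts of Lifr (chr15:7129572, plus strand) and Bmpr1b (chr3:141931420, minus strand) lie well inside the gene intervals. Those intervals are chr15:7090610-7197489 and chr3:141837135-142169585, so these stretches do not precede the outer start of the gene. Capitals mark the bases that lie inside the mTEClo-only region, which joins the intervals of both mTEClo libraries. A capital may lie in the interval of 1 library only. Krt5 and Lifr are genes of immature mTECs, Tgfbr2, Bmpr1b and Erbb2 are signalling receptors, Wwtr1 is a transcriptional coactivator, and Chuk and Ctf1 stand among the regions near gene ends that ranked highest.
Krt5: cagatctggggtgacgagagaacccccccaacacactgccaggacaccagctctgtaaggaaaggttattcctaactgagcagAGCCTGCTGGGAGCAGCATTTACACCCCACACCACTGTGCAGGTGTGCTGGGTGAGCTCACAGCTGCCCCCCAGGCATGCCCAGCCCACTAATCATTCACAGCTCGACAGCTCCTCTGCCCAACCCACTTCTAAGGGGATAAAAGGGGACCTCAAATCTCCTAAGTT
Lifr: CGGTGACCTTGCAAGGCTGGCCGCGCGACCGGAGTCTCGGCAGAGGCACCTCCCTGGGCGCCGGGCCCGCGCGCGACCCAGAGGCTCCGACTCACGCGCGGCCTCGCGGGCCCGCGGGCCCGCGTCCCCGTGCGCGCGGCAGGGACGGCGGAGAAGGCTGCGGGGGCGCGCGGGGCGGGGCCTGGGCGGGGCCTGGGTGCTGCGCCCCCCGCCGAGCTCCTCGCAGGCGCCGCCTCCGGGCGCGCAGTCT
Tgfbr2: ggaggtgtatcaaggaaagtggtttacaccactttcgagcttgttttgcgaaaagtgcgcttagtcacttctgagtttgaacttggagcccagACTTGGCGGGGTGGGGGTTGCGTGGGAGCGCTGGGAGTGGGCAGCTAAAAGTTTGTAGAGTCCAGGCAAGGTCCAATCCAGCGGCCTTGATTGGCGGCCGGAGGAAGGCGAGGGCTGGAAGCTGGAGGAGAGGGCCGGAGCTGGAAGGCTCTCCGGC
Bmpr1b: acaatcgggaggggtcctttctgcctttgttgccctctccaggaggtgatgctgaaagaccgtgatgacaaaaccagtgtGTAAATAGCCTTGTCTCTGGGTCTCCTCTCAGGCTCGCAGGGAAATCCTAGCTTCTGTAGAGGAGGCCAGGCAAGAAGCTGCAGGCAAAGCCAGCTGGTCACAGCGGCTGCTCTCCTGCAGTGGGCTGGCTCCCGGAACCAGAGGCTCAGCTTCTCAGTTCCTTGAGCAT
Erbb2: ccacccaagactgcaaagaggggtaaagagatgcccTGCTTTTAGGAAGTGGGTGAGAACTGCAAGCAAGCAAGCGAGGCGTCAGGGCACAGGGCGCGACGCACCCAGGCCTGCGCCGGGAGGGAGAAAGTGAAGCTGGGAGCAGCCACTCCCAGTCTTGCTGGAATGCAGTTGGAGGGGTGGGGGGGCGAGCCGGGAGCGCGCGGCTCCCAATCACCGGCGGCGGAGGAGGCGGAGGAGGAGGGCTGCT
Chuk: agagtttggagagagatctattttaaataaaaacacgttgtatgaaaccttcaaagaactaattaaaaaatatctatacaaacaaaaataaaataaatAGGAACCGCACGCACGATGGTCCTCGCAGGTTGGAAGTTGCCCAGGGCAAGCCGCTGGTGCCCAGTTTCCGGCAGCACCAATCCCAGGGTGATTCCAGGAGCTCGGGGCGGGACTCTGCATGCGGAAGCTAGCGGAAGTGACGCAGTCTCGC
Wwtr1: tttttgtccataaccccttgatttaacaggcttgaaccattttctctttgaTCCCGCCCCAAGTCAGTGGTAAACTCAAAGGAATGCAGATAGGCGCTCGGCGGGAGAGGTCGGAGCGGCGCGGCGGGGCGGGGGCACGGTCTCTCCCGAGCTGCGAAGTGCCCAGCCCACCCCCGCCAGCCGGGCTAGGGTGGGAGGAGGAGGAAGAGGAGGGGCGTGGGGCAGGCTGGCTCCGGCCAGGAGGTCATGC
Ctf1: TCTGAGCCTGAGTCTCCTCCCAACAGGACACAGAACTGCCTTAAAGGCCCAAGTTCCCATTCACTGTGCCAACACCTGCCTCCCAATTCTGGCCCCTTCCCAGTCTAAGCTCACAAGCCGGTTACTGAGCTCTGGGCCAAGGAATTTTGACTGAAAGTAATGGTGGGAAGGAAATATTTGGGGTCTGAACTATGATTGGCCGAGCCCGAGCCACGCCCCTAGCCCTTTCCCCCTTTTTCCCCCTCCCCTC

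Krt5 encodes the keratin of basal epithelial cells, and its region, chr15:101712545-101713072, had scores of 3.32 and 3.83 in the mTEClo libraries. Both were below the median scores of these lists, 4.12 and 3.94. The printed stretch of Krt5, on the minus strand (chr15:101712906-101713155), holds 1 match to the p53 half-site, as does that of Tgfbr2. The Krt5 match lies in capitals, inside the mTEClo-only region. The summits of that region were at 101712922 in mTEClo replicate 1 and at 101712695 in replicate 2. All capitals of Krt5, the match among them, therefore lie in the interval of replicate 1 alone. The Tgfbr2 match lies in small letters, outside the region. The half-site is named here by its name alone, and both strands were searched. Lifr, the receptor of leukaemia inhibitory factor, had 2 copies of the GC box (GGGCGG) and a GC content of 82.4% in its stretch (chr15:7129322-7129571). Tgfbr2, the type II receptor of TGF-beta, had 2 copies of CCAAT (chr9:116175364-116175613). The stretch of Bmpr1b, a type I BMP receptor (chr3:141931421-141931670), held none of the 8 motifs searched. Its region had scores of 5.66 in mTEClo replicate 1 and 2.23 in replicate 2, the latter near the lowest score of 2. The summits were at 141931440 and 141931301, so most of its capitals lie in the interval of replicate 1 alone. Erbb2, a receptor tyrosine kinase of the EGF receptor family, had 1 CCAAT (chr11:98412234-98412483). Chuk, the IKK-alpha kinase of NF-kB signalling, had 3 copies of the Ets core GGAAG (chr19:44107478-44107727). Wwtr1, the Hippo pathway coactivator TAZ, had 2 GC boxes (chr3:57575877-57576126). Ctf1, the cytokine cardiotrophin 1, had 2 copies of CCAAT (chr7:127712453-127712702). A match is a string of letters anywhere in a window, inside the mTEClo-only region or not, and says nothing of a bound factor.

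Over all windows carrying an mTEClo-only region, the p53 half-site was found in 10.6% (8.27 to 13.4), against 9.06% (6.30 to 12.9) of windows with an mTEChi-only region, 6% of windows with a region in all 4 libraries and 7.32% of all 20085 windows. The mTEClo-only and mTEChi-only intervals overlapped. CACGTG, the E-box, was found in 5.9% (4.23 to 8.17) of mTEClo-only windows, against 13.8% (10.3 to 18.1) of mTEChi-only windows and 7.89% of all windows. For this motif the 2 intervals did not overlap. GGGCGG was in 61.2% of mTEClo-only and 61.1% of mTEChi-only windows, against 47% of all windows. The mean GC content was 61.2% in mTEClo-only windows, 58.7% in mTEChi-only windows and 56.5% in all. CCAAT was in 35.4% (31.6 to 39.5) of mTEClo-only windows, 38.6% of mTEChi-only windows and 54.2% of windows with a region in all 4 libraries. Its share over all windows, 38.1%, lay inside the mTEClo-only interval. TGACTCA (AP-1) was in 4.47% of mTEClo-only and 5.37% of mTEChi-only windows, against 4.7% of all windows. In the same order, TGACGTCA (CRE) was in 3.04% and 2.35%, against 2.3%, and GGAAG in 76.6% and 74.8%, against 72.2%. The NRF1 palindrome, given by its name alone, was in 1.07% and 2.35%, against 1.34%. These 8 motifs may overlap one another, windows of neighbouring starts share bases, and intervals cover counting error only.

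Most mTEClo-only regions lay inside genes and away from their ends. Of the 4518 regions, 3801 (84.1%, 83 to 85.2) had their midpoint inside a gene interval, and 913 (20.2%, 19.1 to 21.4) lay within 1 kb of either end of one. For the mTEChi-only regions the shares were 82.5% (81.1 to 83.8) and 15.9% (14.7 to 17.3), and for regions in all 4 libraries 58.1% and 61.8%. The median distance to the nearest gene end was 9184 bp for mTEClo-only regions, 10962 bp for mTEChi-only regions and 222.5 bp for regions in all 4. Inside genes and more than 1 kb from an end lay 71.2% of the mTEClo-only regions, and 21.7% lay more than 50 kb from any end. The 2 state-specific sets resembled the whole of the merged regions, of which 13.5% lay within 1 kb of a gene end, more than they resembled the regions shared by all libraries.

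**Figure D1:**
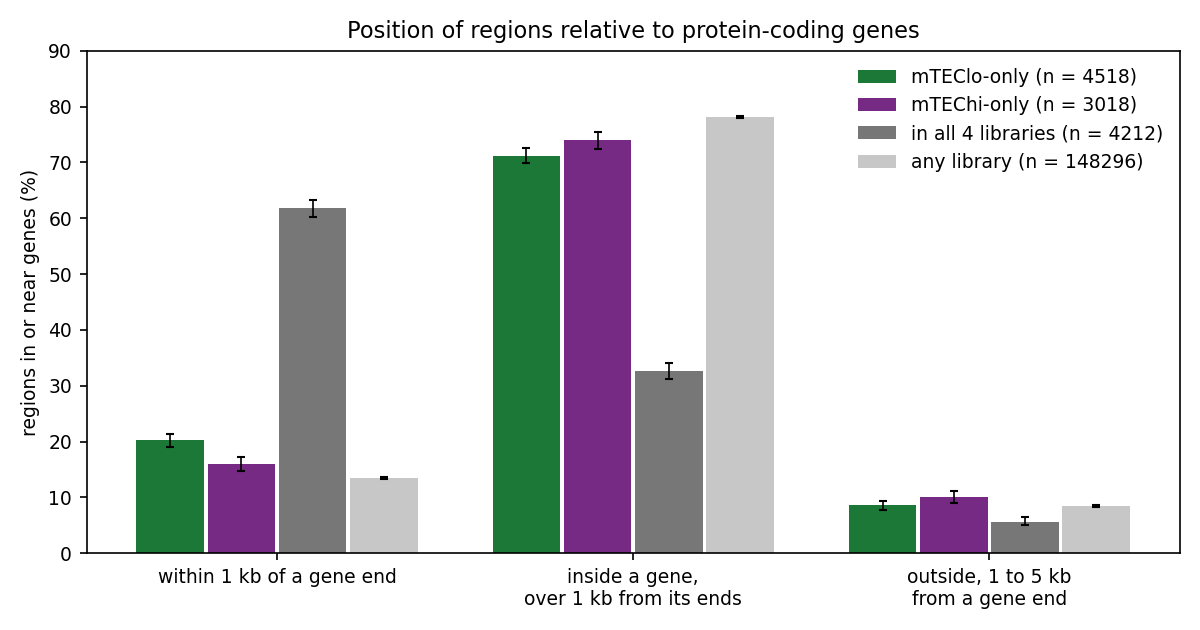
Share of regions in or near genes (y axis, %) in 3 classes of position, for mTEClo-only regions, mTEChi-only regions, regions present in all 4 libraries and all merged regions. Bars are shares and error bars 95% Wilson intervals for counting error; the mTEClo-only set has 20.2% of its regions within 1 kb of a gene end, against 15.9% of the mTEChi-only set and 61.8% of the regions in all 4 libraries.

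Of all mTEClo-only regions, 63.3% (62.2 to 64.4) lay in or near genes, against 63.7% (62.3 to 65) of the mTEChi-only regions, intervals that overlap. The share was 57.5% over all merged regions and 81.9% over the regions in all 4 libraries. Per library, 60.8% and 60.1% of mTEClo summits fell in or near genes, against 59.4% and 59.6% of mTEChi summits. Both mTEClo libraries stood above both mTEChi libraries, by 0.957 percentage points on average (60.5 ± 0.533 and 59.5 ± 0.105, SD, n = 2 each). The two-sided exact permutation p was 0.33, the smallest that 2 against 2 libraries allow, so the design cannot reach 0.05. The direction turned to -0.726 points when each list was kept to the peaks at or above its median score, and to -2.42 points among the 10000 highest peaks of each list.

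The median width of the regions was 384 bp, against 391 bp for mTEChi-only regions and 431 bp for regions in all 4 libraries. Over all merged regions in or near genes the median was the width of a single deposited interval. By the rule each mTEClo-only region joins peaks of both mTEClo libraries, so a median above that width is not independent of the choice. Of the 4518 regions, 4412 were made of 1 peak from each mTEClo library. The 2 summits lay a median of 83 bp apart, and within 50 bp of each other in 33.7% of regions, against 31.3% of mTEChi-only regions and 47.2% of regions in all 4 libraries. The median score was 4.64 in mTEClo replicate 1 and 4.33 in replicate 2, with highest values of 22.1 and 21.8. Over the whole of these 2 lists the medians were 4.12 and 3.94, and 61.5% and 62.8% of the mTEClo-only regions stood at or above them. Regions in all 4 libraries had medians of 8.63 and 6.0 in the same mTEClo lists. A peak of the other state was often close by: the gap to the nearest mTEChi interval had a median of 3162 bp, was at most 1 kb for 22.5% of regions and exceeded 20 kb for 3.94%. For the mTEChi-only regions the gap to the nearest mTEClo interval had a median of 3280 bp. The regions in Ak5, an adenylate kinase gene, and Faf2, which encodes a factor of protein degradation at the endoplasmic reticulum, directly abutted an mTEChi interval (a gap of 0 bp), and were counted as mTEClo-only because no base was shared.

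The region with the best worse rank, that is, placed highest in the mTEClo list in which it ranked lower, lay inside Slc25a54, a member of the mitochondrial carrier family (chr3:109082454-109082787). Its scores were 18.9 and 13.8, ranks 487 and 399 of the 2 lists. Next came a region inside Hunk, a protein kinase gene, with scores of 17.8 and 11.4 (chr16:90490073-90490400), and one inside Plxdc1, which encodes a plexin domain protein, with 22.1 and 10.6 (chr11:97971249-97971623). A region inside Dsc2, the desmosomal cadherin desmocollin 2, had scores of 15.7 and 10.3. Efcab14, an EF-hand protein gene, had scores of 14.2 and 13.1 (chr4:115775126-115775455). Inside Prkci, the polarity kinase atypical PKC iota, the scores were 14.2 and 9.65 (chr3:31022833-31023238). Inside Synm, which encodes the intermediate filament protein synemin, they were 13.5 and 10.3 (chr7:67740761-67741382). The other genes among the first 12 were Rusc2, Fto, which encodes an RNA demethylase, Zfp280b, Aff1, an elongation factor gene, and Pde4d, a cAMP phosphodiesterase gene. Of the 12 regions, 11 lay inside a gene and the 1 at Zfp280b lay 3704 bp outside it. Only Pde4d's was within 1 kb of a gene end, at 100 bp.

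Among the regions within 1 kb of a gene end, the one at Pde4d ranked first, with scores of 12 and 10.3 (chr13:108654094-108654461). It was followed by Lrp1, an endocytic receptor of the LDL receptor family, with 10.8 and 13.6 (chr10:127621621-127621952, 638 bp outside the gene), and by Ctf1, with 14.2 and 7.63. The region at Chuk (chr19:44107311-44107629) had scores of 9.28 and 7.75 and lay 35 bp inside the gene. Tyk2, a JAK family kinase of cytokine receptors, had 9.28 and 6.98 (chr9:21131034-21131454). Col8a2, a network-forming collagen, had 9.94 and 7.15 (chr4:126314353-126314698). The other 6 of the first 12 were at Mmp27, a matrix metalloproteinase, Txndc17, a thioredoxin-like protein, Tmem273, Ces1b, a carboxylesterase, Slamf8, a SLAM family receptor, and Guf1, a mitochondrial translation factor. At the limit of the 5 kb rule, the regions at Gcnt2 (4996 bp, scores 4.10 and 6.0) and Tspan18 (4994 bp, 4.10 and 3.48) were just inside. Those at Ift43 (5001 bp, 5.25 and 3.48) and Exoc3l4 (5004 bp, 8.0 and 5.25) were just outside.

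An mTEClo-only region lay in or near 3726 of 20665 protein-coding genes (18%), and an mTEChi-only region in or near 2710 (13.1%). Both kinds were found at 936 genes, which is 25.1% of the genes with an mTEClo-only region and 34.5% of those with an mTEChi-only region. Most of the 3726 genes, 2863, had 1 mTEClo-only region, 579 had 2 and 284 had 3 or more. The same genes mostly carried mTEChi peaks elsewhere in their window: 3048 (81.8%) had peaks of both mTEChi libraries, and 142 (3.81%) had none of either. Genes with an mTEClo-only region were long, with a median of 45142 bp against 17491 bp for all genes. The share of genes with an mTEClo-only region was 6.04% up to 5 kb of length and 72.2% above 500 kb, and for mTEChi-only regions 3.90% and 53.7%. Per megabase of gene window, the gene with 5 kb on each side, mTEClo-only regions numbered 5.16 in the shortest and 2.06 in the longest class, and mTEChi-only regions 3.31 and 1.12. Over all gene windows there were 4.02 mTEClo-only and 2.69 mTEChi-only regions per megabase. By chromosome the mTEClo-only density was lowest on chromosome 6, at 3.24, and highest on chromosome 11, at 5.33 per megabase. The mTEChi-only density on these 2 chromosomes was 2.29 and 3.55.

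**Figure D2:**
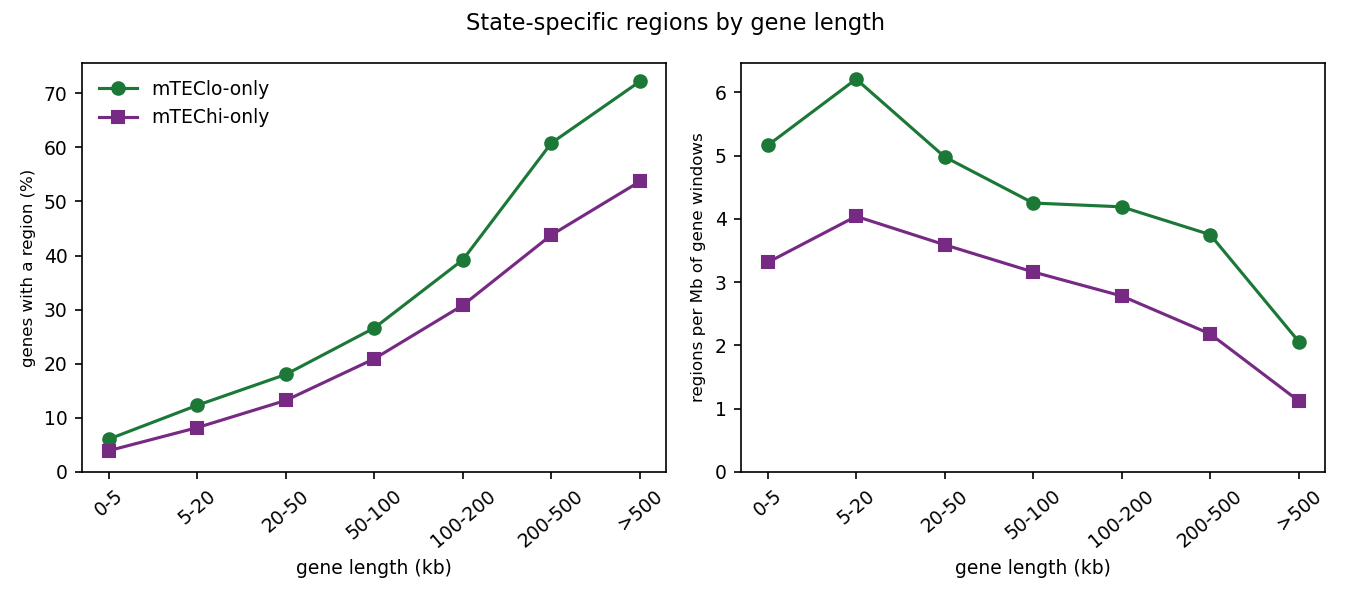
Left, share of protein-coding genes with an mTEClo-only or an mTEChi-only region (y axis, %) by gene length (x axis, kb); right, the number of such regions per Mb of gene windows, the gene interval with 5 kb on each side. The share grows with length to 72.2% for mTEClo-only and 53.7% for mTEChi-only regions, while the density is lowest in the longest genes, at 2.06 and 1.12 per Mb.

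The genes with most mTEClo-only regions were very long. Counts of peaks over a gene's whole window take in its mTEClo-only regions, which by the rule have a peak in both mTEClo libraries and in neither mTEChi library. A gap between the states in such counts is therefore a description and is not independent of the choice. Counts with both kinds of state-specific region left out are given beside some of them, and these too depend on the rule. Nav2, which encodes a microtubule-associated neuron navigator, had 9 mTEClo-only and 1 mTEChi-only region over 651 kb, with 63 and 40 peaks in the mTEClo libraries against 34 and 35 in the mTEChi libraries. Wwox, an oxidoreductase gene at a fragile site, had 9 and 3 over 913 kb. Kcnh1, a potassium channel gene, had 8 and 1 over 321 kb, and Msi2, an RNA-binding protein gene known from stem cells, 8 and 3 over 379 kb. Rad51b, a gene of homologous recombination, had 8 and 1. Arhgap26, a GTPase activator gene, had 8 and 4, Auts2, a gene of Polycomb regulation and neural development, 8 and 2, and Rbfox1, a splicing factor gene, 8 and 2.

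Genes with at least 4 mTEClo-only regions were also ranked per megabase of window, a ranking chosen after the values were seen. Smtnl2, which encodes a smoothelin-like protein and is 22.6 kb long, came first with 4, or 123 per megabase of window. It had 5 and 4 peaks in the mTEClo libraries, against 1 and 0 in the mTEChi libraries. Anxa2, the gene of the membrane-binding protein annexin A2, is 38.1 kb long and had 4, or 83.1 per megabase of window. It had 7 and 8 peaks in the mTEClo libraries, against 4 and 4 in the mTEChi libraries. Boc, a Hedgehog co-receptor gene, had 5, with 12 and 9 peaks in mTEClo, against 4 and 6 in mTEChi. Synpo2, an actin-bundling protein gene, had 7, with 16 and 24 peaks in mTEClo, against 13 and 7 in mTEChi. Kifc3, a minus-end kinesin gene, had 4, with 10 and 9 peaks in mTEClo, against 2 and 2 in mTEChi. At these 5 genes both mTEClo libraries stood above both mTEChi libraries, as the choice by mTEClo-only regions favours. With the state-specific regions left out, Smtnl2 had 1 and 0 peaks in mTEClo, against 1 and 0 in mTEChi, and the groups overlapped also at Anxa2, Boc and Synpo2. At Kifc3 there were 6 and 5 in mTEClo, against 2 and 2 in mTEChi. Dapk2, a death-associated kinase gene, had 5 mTEClo-only regions but 15 and 11 peaks in mTEClo, against 17 and 9 in mTEChi, so its groups overlapped.

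Of 20 listed genes of immature mTECs, 13 (65%) had an mTEClo-only region, beside 18% of all genes and 19.1% of genes weighted to the same length classes. An mTEChi-only region lay at 4 of the 20 (20%), against 14% for like lengths. The median number of mTEClo-only regions per gene was 1 in this list and 0 over all genes. The basal keratin gene Krt5 had 2, the one at its start shown above and one 2721 bp beyond the other end (chr15:101704079-101704617, scores 5.12 and 4.93). Measured from the lower end of the gene interval, the summits of mTEClo replicates 1 and 2 lay at 5.853 and 5.626 kb in the first. In the second they lay at -2.84 and -2.602 kb. In both regions the summits were farther apart than the median of 83 bp and the alternative limit of 75 bp. In its whole window Krt5 had 5 and 4 peaks in the mTEClo libraries, against 1 and 1 in the mTEChi libraries. With the 2 regions left out the counts were 3 and 2 in mTEClo, against 1 and 1 in mTEChi. Krt14, the keratin partner of Krt5, had 1 mTEClo-only region, 2910 bp outside the gene (chr11:100200033-100200471, scores 9.94 and 3.65), and 1 mTEChi-only region inside it (4.79 and 6.2 in mTEChi).

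Laminin 332 is the basement membrane ligand of basal epithelium, and Lamb3, the gene of its beta chain, had 2 mTEClo-only regions. Both lay inside it (5.25 and 4.42, 7.71 and 3.48), and the peaks numbered 6 and 4 in mTEClo, against 3 and 6 in mTEChi, so the states overlapped. Pdpn, the mucin-like glycoprotein podoplanin that marks junctional mTEC progenitors, had 2 (chr4:143288905-143289227, scores 7.39 and 4.93; chr4:143296925-143297334, 9.07 and 4.42). Its peaks numbered 4 and 5 in mTEClo, against 0 and 3 in mTEChi, and without the 2 regions 2 and 3 in mTEClo, against 0 and 3 in mTEChi, which overlap. Lifr had 2, one 7 bp inside an end of the gene interval (scores 4.10 and 5.46) and one at the start inside the gene shown above (3.62 and 4.26). Its peaks numbered 10 and 10 in mTEClo, against 5 and 6 in mTEChi, and without the 2 regions 8 and 8 in mTEClo, against 5 and 6 in mTEChi.

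Single mTEClo-only regions were found at Apoe, a lipid carrier gene (scores 3.77 and 3.94), Fst, the activin antagonist follistatin (5.12 and 7.75, 1837 bp outside), Itga2, the collagen-binding integrin alpha 2 (3.17 and 4.42), Igfbp5, an IGF-binding protein gene (4.60 and 3.94), and Trp63, the p53 relative that maintains epithelial progenitors. In Trp63 the region lay 54076 bp from an end (chr16:25737646-25738032, scores 4.60 and 3.03). Trp63 also had an mTEChi-only region, and its 13 and 12 peaks in mTEClo stood between the 21 and 6 peaks in mTEChi. At 2 genes the region belonged as much to a neighbour: the one within 5 kb of Itgb4, the hemidesmosomal integrin beta 4, lay 2 bp inside the end of Galk1, and the one near Ackr4, a scavenging chemokine receptor gene, was closer to Acad11. Itga6, Dpp4, Podxl, Bcam, Ccl21a and Ly6a had no mTEClo-only region, and Ccl21a and Ly6a had no peak in any library. Itga6 had an mTEChi-only region (scores 7.87 and 3.66 in mTEChi), and so had Igfbp5 (4.01 and 2.88).

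**Figure D3:**
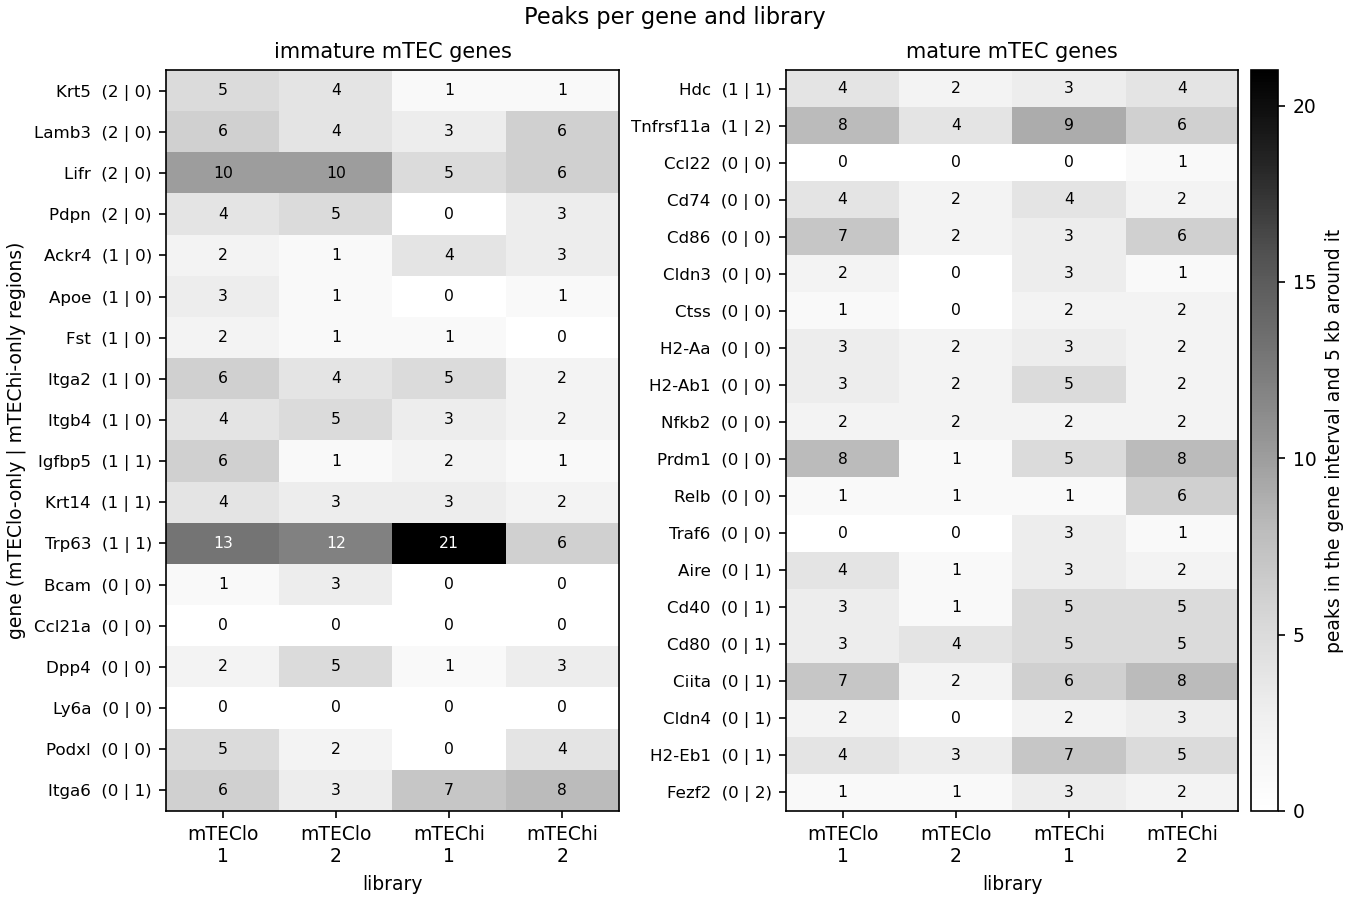
Number of peaks in the window of each gene (gene interval and 5 kb around it) in the 4 libraries, for genes of immature mTECs (left) and mature mTECs (right), with the numbers of mTEClo-only and mTEChi-only regions after each name. Grey shade gives the number printed in each cell; Krt5 has 5 and 4 peaks in the mTEClo libraries against 1 and 1 in the mTEChi libraries, while Aire has 4 and 1 against 3 and 2.

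In mature mTEC genes the counts ran the other way. An mTEClo-only region lay at 2 of 20 (10%, against 16% for like lengths), and an mTEChi-only region at 9 (45%, against 11.5%). The 2 were Tnfrsf11a, the receptor RANK that drives mTEC maturation, with a region 841 bp from an end (chr1:105781352-105781676, scores 5.45 and 3.48), and Hdc, histidine decarboxylase, with one 332 bp from an end (chr2:126593745-126594237, 7.39 and 3.76). Both genes also had mTEChi-only regions, as did Cd40, Cldn4, Aire, Fezf2, Ciita, Cd80 and H2-Eb1. The region near Aire was mTEChi-only, at 3014 bp outside the gene, with scores of 11.8 and 7.22 in mTEChi. For Cldn4, a tight junction claudin, it lay 135 bp outside, with 11.3 and 14.6.

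The lists above count the state-specific regions that the rule chose, so their direction is not independent of it. Peaks outside all mTEClo-only and mTEChi-only regions are not independent either, since leaving these regions out takes away peaks of 1 state that its 2 libraries share. Both counts are a description. Counted per 10000 peaks in gene windows, all peaks at the immature genes numbered 14.1 and 14.9 in mTEClo, against 12.4 and 9.0 in mTEChi. Outside the state-specific regions they numbered 12.2 and 12.4 in mTEClo, against 12.5 and 8.83 in mTEChi, and the 2 states overlapped. At the mature genes the values were 10.9 and 6.39 in mTEClo, against 15.1 and 12.9 in mTEChi. Outside the state-specific regions they were 11.5 and 6.69 in mTEClo, against 13.8 and 11.6 in mTEChi, the nearest 2 libraries standing side by side. The 13 immature genes were 8 when the gene window was 1 kb and 8 when shared peaks were those with summits within 75 bp. They were 6 among the peaks at or above the median score of each list and 2 among the 10000 highest peaks. Over all 20665 genes, the 3726 with an mTEClo-only region were 3128, 2720, 2082 and 720 in the same order, so the count fell there too. These settings were chosen for the lists after the data were seen.

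**Figure D4:**
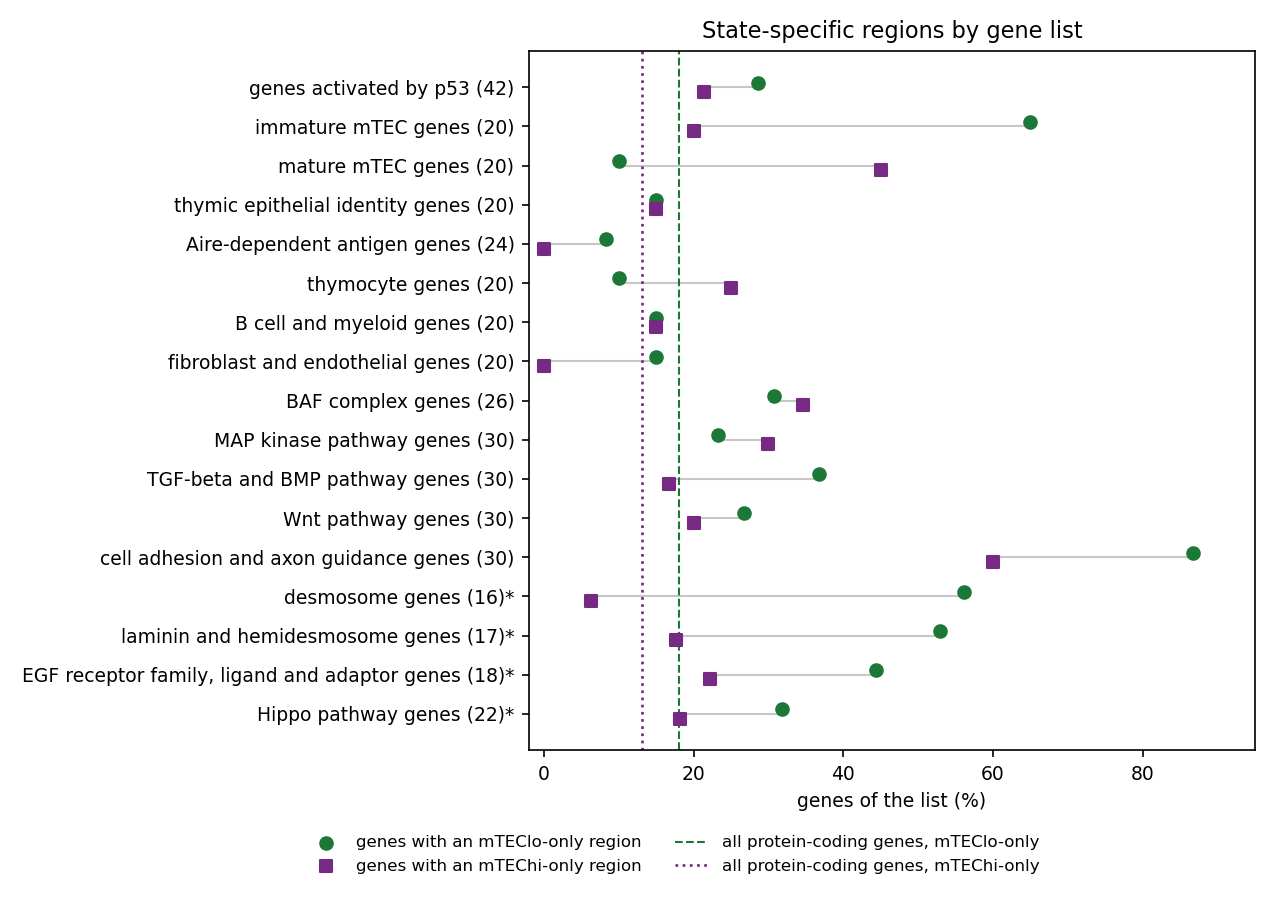
Share of the genes of each list (x axis, %) with an mTEClo-only region (circles) and with an mTEChi-only region (squares), the number of genes in parentheses and an asterisk at lists chosen after values were seen. Dashed and dotted lines mark the shares over all protein-coding genes, 18% and 13.1%; immature mTEC genes stand at 65% and 20%, mature mTEC genes at 10% and 45%.

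TGF-beta and BMP signals run from secreted ligands through paired receptors to SMAD proteins that enter the nucleus. Of 30 genes of this pathway, 11 had an mTEClo-only region (36.7%, against 25.2% for like lengths) and 5 an mTEChi-only region (16.7%, against 19.3%). Among the ligands, Tgfb2 had one inside the gene (scores 5.12 and 3.48), Tgfb3 one 562 bp outside (4.51 and 4.93) and Bmp7 one 207 bp outside (5.71 and 3.57). Among the receptors, Tgfbr2 had 2, one 24457 bp from an end (chr9:116150754-116151059, 9.94 and 5.46) and one at the start shown above (chr9:116175148-116175520, 4.10 and 6.0). Tgfbr3, the co-receptor betaglycan, and Bmpr1b had 2 each, and Bmpr1a had 1. Among the signal carriers, Smad1 had 3, led by chr8:79350178-79350613 with scores of 14.4 and 5.68, and Smad3 and Smad5 had 2 each. Smad1 also had 1 mTEChi-only region. The peaks over the whole of Smad1 numbered 13 and 7 in the mTEClo libraries, against 9 and 7 in the mTEChi libraries, and those over Tgfbr2 6 and 4, against 6 and 2, so the groups overlapped at both genes. Fst is the antagonist with a region. Smad2, Acvr2a, Skil and Smurf1 had only mTEChi-only regions.

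The EGF receptor family signals through adaptors such as GAB1 to the MAP kinases. In a list chosen after values were seen, 8 of 18 genes of the receptors, ligands and adaptors had an mTEClo-only region (44.4%, against 30.9% for like lengths), and 4 an mTEChi-only region (22.2%, against 23.2%). Egfr had 6 mTEClo-only regions and no mTEChi-only region. They lay 8064 to 67996 bp from the nearest end of the gene, the highest being chr11:16760085-16760450 with scores of 6.21 and 5.46. Over the whole gene the libraries were alike in number, with 18 and 12 peaks in mTEClo, against 14 and 16 in mTEChi. Without the 6 regions both mTEClo libraries, at 12 and 6, stood below both mTEChi libraries, at 14 and 16, as the leaving out of mTEClo peaks alone favours. Gab1 had 5 mTEClo-only and no mTEChi-only region, with 20 and 9 peaks in mTEClo, against 8 and 8 in mTEChi. Without the 5 regions the counts were 15 and 4 in mTEClo, against 8 and 8 in mTEChi, and the groups overlapped. Erbb2 had 2, one of them at its start, with scores of 9.20 and 2.48 (chr11:98412270-98412917), and 3 and 3 peaks in mTEClo, against 1 and 1 in mTEChi. Without the 2 regions there were 0 and 1 in mTEClo, against 1 and 1 in mTEChi. Among the ligands, regions lay at the starts or ends of Tgfa (3.62 and 4.93) and Ereg (4.10 and 4.42) and deep inside Nrg1, which had 3. In the wider MAP kinase list, 7 of 30 genes had an mTEClo-only region and 9 an mTEChi-only region (23.3% and 30%, against 26.6% and 20% for like lengths). Beside Egfr and Erbb2, they were the scaffold genes Ksr1 and Ksr2, the kinase gene Map3k5, the phosphatase gene Dusp4 and the feedback inhibitor gene Spry1. The Spry1 region lay at the gene's start (3.62 and 3.48), and Spry1 had no mTEChi peak.

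**Figure D5:**
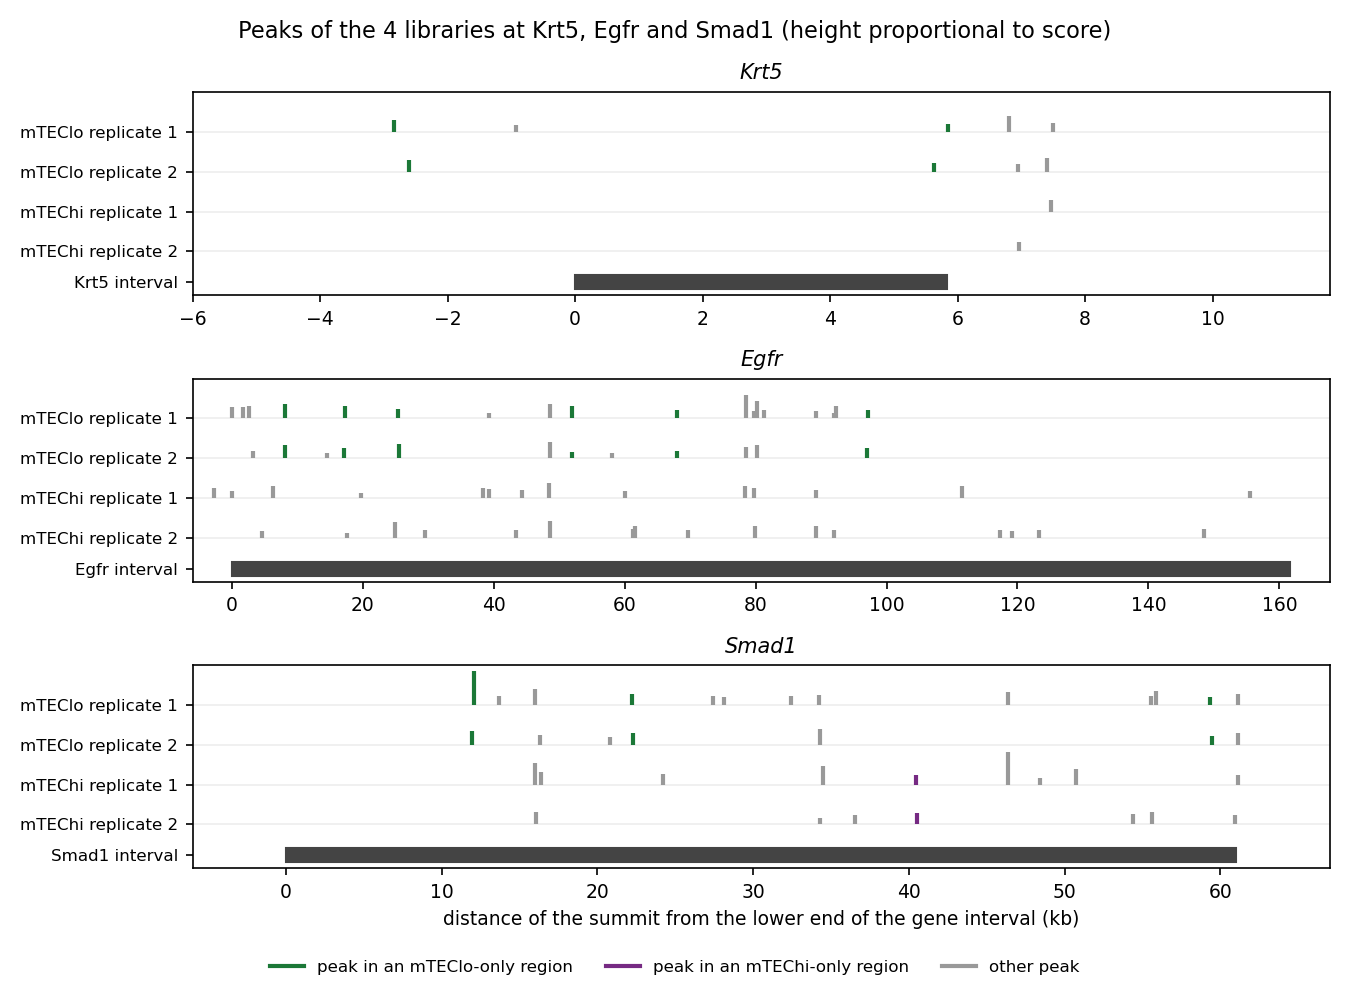
Peaks of the 4 libraries at Krt5, Egfr and Smad1, drawn as vertical lines at the distance of the summit from the lower end of the gene interval (x axis, kb), with height proportional to the peak score, mTEClo libraries above mTEChi libraries and the gene interval as a bar below. Green lines are peaks in mTEClo-only regions (2 regions at Krt5, 6 at Egfr, 3 at Smad1), and purple lines peaks in mTEChi-only regions (1 at Smad1). Grey lines are other peaks, which both states have at Krt5, Egfr and Smad1.

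Desmosomes join neighbouring epithelial cells, and hemidesmosomes join them to the laminins beneath. Of 16 desmosome genes, a list chosen after values were seen, 9 had an mTEClo-only region (56.2%, against 19.1% for like lengths) and 1, Dsg2, an mTEChi-only region (6.25%, against 14.1%). The highest ranked was the one in Dsc2 given above. The plakophilin genes Pkp1 and Pkp4 had 3 regions each, Dsc3, a desmosomal cadherin gene, had 2, and Pkp2, Pkp3, Dsc2, Dsg2, Jup and Perp had 1 each. Pkp1, the plakophilin of stratified epithelium, had scores of 12.6 and 3.48 at the region 124 bp outside the gene (chr1:135919115-135919547), and 9 and 5 peaks in the mTEClo libraries, against 6 and 3 in the mTEChi libraries. Without its 3 regions the counts at Pkp1 were 6 and 2 in mTEClo, against 6 and 3 in mTEChi. Pkp4 had 15 and 11 peaks in mTEClo, against 4 and 9 in mTEChi, and without its 3 regions 12 and 8 in mTEClo, against 4 and 9 in mTEChi, which overlap. All peaks at the desmosome genes numbered 8.44 and 9.37 per 10000 in mTEClo, against 9.37 and 7.06 in mTEChi, and the states overlapped. Of 17 laminin and hemidesmosome genes, also chosen after values were seen, 9 had an mTEClo-only region (52.9%, against 32.1% for like lengths) and 3 an mTEChi-only region (17.6%, against 24.2%). Beside Lamb3, Lama3, the alpha chain of laminin 332, had a region with scores of 18.1 and 5.46, and the plakin genes Dst and Plec had 3 and 1. Dst also had 4 mTEChi-only regions. Its peaks numbered 27 and 18 in mTEClo, against 17 and 27 in mTEChi, and the groups overlapped.

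In the Hippo pathway, which restrains growth through the coactivators YAP and TAZ, 7 of 22 genes had an mTEClo-only region (31.8%, against 24.5% for like lengths) and 4 an mTEChi-only region (18.2%, against 18.3%). This list too was chosen after values were seen. Wwtr1 had 3, of which the one at the gene's start (chr3:57575678-57576075) scored 8.14 and 6.52. Amotl1, an angiomotin that holds YAP at junctions, had 5, with 17 and 8 peaks in mTEClo, against 3 and 6 in mTEChi. Without the 5 regions the counts were 12 and 3 in mTEClo, against 3 and 6 in mTEChi, and the groups overlapped. Tead1, a DNA-binding partner of the coactivators, had 2, one with scores of 7.39 and 11.7 (chr7:112841919-112842235). Yap1 had none.

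Of 42 genes that p53 is known to activate, 12 had an mTEClo-only region (28.6%, against 14.4% for like lengths). An mTEChi-only region lay at 9 (21.4%, against 10.2%), so with all peaks used the list stood above its background in both states. In settings chosen after the data were seen, the 12 were 7 at or above the median score and 1 among the 10000 highest peaks. Of all 20665 genes, 2082 and 720 then had one, so among the 10000 highest peaks the list was not above all genes. The 9 were 8 and 3. The highest ranked mTEClo-only region of the list was at Pidd1, a gene of p53-induced death signalling, with scores of 6.86 and 6.0 (chr7:141443122-141443563). Phlda3, an inhibitor of AKT signalling, had one 2110 bp outside the gene (6.56 and 9.97). The stress gene Sesn1, a regulator of TORC1, had 2 (9.94 and 4.42; 5.12 and 5.46), and Ccng1, cyclin G1, had 1 at 489 bp from an end (3.62 and 5.43). Regions also lay at Ckap2, Ercc5, Xpc, Tap1, Perp and Cd82, with the Ckap2 region inside the neighbour Nek3. Cdkn1a, the p21 inhibitor of the cell cycle, was the 1 gene with both kinds. Its mTEClo-only region lay 4559 bp inside the gene (chr17:29095382-29095695, 3.22 and 4.87), and its mTEChi-only region 41 bp outside an end (5.83 and 4.74 in mTEChi). Mdm2, the ubiquitin ligase that restrains p53, had an mTEChi-only region 89 bp outside the gene and no mTEClo peak at all. Trp53 itself had 1 mTEChi-only and no mTEClo-only region. Over all peaks, the p53 list held 19.3 and 19.4 per 10000 in mTEClo, against 22.8 and 20.7 in mTEChi.

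The other lists are given by their counts, with the shares for like lengths beside them. Of 20 genes of thymic epithelial identity, 3 had an mTEClo-only and 3 an mTEChi-only region (15% and 15%, against 16.3% and 11.8%). The 3 with an mTEClo-only region were Hoxa3, a patterning gene of the thymus (2 regions, 8.63 and 4.93 for the higher), Il7, the thymocyte growth factor (2), and Cdh1, E-cadherin. Both regions inside Hoxa3 were nearer to an end of the neighbour Hoxa4, the higher one at 452 bp, against 20171 bp to an end of Hoxa3. Of 26 BAF complex genes, 8 had an mTEClo-only region and 9 an mTEChi-only region (30.8% and 34.6%, against 24.1% and 17.9%). Among them Arid1b led with 14.3 and 8.37 (chr17:5189785-5190162), and Smarcc1, which encodes BAF155, had 1. The region counted for Bcl7c is the one at Ctf1, 3775 bp away. Of 30 Wnt pathway genes, 8 and 6 had one (26.7% and 20%, against 24.2% and 18.3%). Of 30 cell adhesion and axon guidance genes with long introns, 26 and 18 had one (86.7% and 60%, against 67.3% and 49.9%), 7 of the mTEClo-only regions in Robo1. Of 24 Aire-dependent antigen genes, only Tg, thyroglobulin, and Kcnj5, a potassium channel, had an mTEClo-only region (8.33%, against 11.6%), and none had an mTEChi-only region (against 8.1%).

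Other cells that a sort could hold were looked for by the same count. Of 20 thymocyte genes, 2, Bcl11b and Cd5, had an mTEClo-only region and 5 an mTEChi-only region (10% and 25%, against 18.1% and 13.0% for like lengths). Of 20 B cell and myeloid genes, 3 had each kind (15% each, against 18.1% and 13.2%). Of 20 fibroblast and endothelial genes, 3 had an mTEClo-only region, Fbn1, Vwf and Pecam1 (15%, against 22.7%), and none an mTEChi-only region (against 16.9%). All peaks at the fibroblast and endothelial genes numbered 12.3 and 13.0 per 10000 in mTEClo, against 10.8 and 11.5 in mTEChi. At the thymocyte genes they numbered 8.28 and 8.73 in mTEClo, against 6.92 and 9.0 in mTEChi, and at the B cell and myeloid genes 8.44 and 8.73, against 9.37 and 12.2. Peaks do not measure how many such cells were present, and their part in the counts was not tested.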

How the data were processed

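The authors deposited, for each of 4 CUT&RUN libraries, a list of intervals around peak summits with a score per peak. The authors deposited this score as the −log10 of either a p-value or a q-value, and which of them is not stated. Per the submitters' processing notes, MACS2 2.2.7.1, Bowtie2 2.2.9, SAMtools 1.9 and Picard were used with the mm10 build. Each list belongs to 1 library. Scores were used only to describe and rank peaks within a list. Read depth is unknown, and Wilson intervals (95%) cover counting error only.

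Intervals sharing at least 1 bp were merged on chromosomes 1 to 19 and assigned to states by the libraries present. Region midpoints were placed against RefSeq protein-coding gene intervals (GRCm38.p6). A gene's window is its interval with 5 kb on each side. The share of summits in or near genes was compared by an exact permutation test over libraries. Shares for like lengths weight 7 length classes as in the list. Python 3.11.15, pandas 2.3.3, numpy 2.4.6, scipy 1.17.1 and matplotlib 3.10.9 were used, and the steps were tested on simulated regions. Of 361 genes on 14 lists, 357 matched (not Diaph2, Eda2r, Sh2d1a and Was, and Spt1 was read as Mucl2), and 4 further lists of 73 genes were added after values were seen. 1 list and some listed genes are not reported here. The regions and all lists were chosen with earlier results of these data known.

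Genes named are the first 12 regions by the worse of the 2 ranks, overall and within 1 kb of a gene end, the genes with 8 or more regions, up to 3 genes per list by rank, the regions at the limits of the rule, and Trp53, Mdm2, Cdkn1a and Aire; predicted genes were passed over. Others were chosen after their values were seen. Alternatives were the peaks at or above the median score and the 10000 highest peaks of each list, equal list lengths, a limit of 75 bp between summits, gene windows of 1 kb and 25 kb, leaving out each library, and a replicate block.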

Additional observations from a re-analysis of the deposited data

Results flagged for a closer look

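Chromosome X was left out of the regions described above. By the same rule it held 8 mTEClo-only and 21 mTEChi-only regions in or near genes among 1648 merged regions, so it stands out as data outside the main count that carry the same kind of signal. With 19 autosomes giving 4518 and 3018, the order of the 2 states on chromosome X was the reverse of theirs, and the difference was not tested. The peaks on chromosome X numbered 443 and 228 in the mTEClo libraries, against 498 and 755 in the mTEChi libraries, so the mTEChi lists held more there, and the part of this in the reversed order was not tested.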

How the results depend on the processing

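Keeping peaks at or above each list's median score left 2234 mTEClo-only and 1818 mTEChi-only regions in or near genes and 2082 genes, and the 10000 highest peaks left 647, 770 and 720. At or above the median 63.9% of mTEClo-only regions lay in or near genes, 82.3% inside a gene and 22.1% within 1 kb of an end, and under the 10000 highest 64.5%, 79.3% and 27.4%. Requiring summits within 75 bp gave 2971 mTEClo-only and 1967 mTEChi-only regions and shares of 65.0%, 81.1% and 24.2%. Windows of 1 kb and 25 kb put 57.9% and 75.2% of mTEClo-only regions in or near genes, the wider one 6115 genes. Leaving out 1 library gave 5592 to 39403 mTEClo-only and 3678 to 38216 mTEChi-only regions, 4487 to 13392 genes, and shares of 56.8% to 65.2%, 81.6% to 87.4% and 11.2% to 24.0%, since with 1 library of a state any of its peaks counts. Without mTEClo replicate 1 or 2 the mTEClo-only count was 30803 or 39403, and without mTEChi replicate 1 or 2 the mTEChi-only count was 38216 or 30106. Equal list lengths moved no count by more than 1.5 times.

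The mTEClo minus mTEChi difference in summits in or near genes, 0.957 points, was -0.726 at or above the median and -2.42 among the 10000 highest (exact permutation p 0.667 each), and 0.58 to 1.33 without 1 library. Paired by replicate number, the replicate block gave 0.957 (exact p 0.5, the smallest 2 pairs allow). That the numbers pair libraries is not stated.

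For the lists, alternatives were chosen after the data were seen. Immature genes with an mTEClo-only region numbered 6 at or above the median, 2 among the 10000 highest, 8 with summits within 75 bp and 8 with a 1 kb window. Of all genes, 2082, 720, 2720 and 3128 had one in the same order. Without 1 library the immature genes numbered 14 to 17. Immature genes with an mTEChi-only region numbered 2 at or above the median, 0 among the 10000 highest and 2 with summits within 75 bp. They numbered 7 with a 25 kb window, and 4 to 15 without 1 library (15 and 12 without mTEChi replicates 1 and 2). Mature genes with an mTEClo-only region numbered 0 at or above the median, 0 among the 10000 highest, 6 with a 25 kb window and 2 to 14 without 1 library (9 and 14 without mTEClo replicates 1 and 2). Those with an mTEChi-only region numbered 3 among the 10000 highest and 10 to 18 without 1 library (18 and 17 without mTEChi replicates 1 and 2). Depth, not known here, limits what the absence of a peak can mean.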
